A study of Mus musculus with 5 samples.

Results

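The regions described here are 2 windows of the mouse genome that lie in clusters of olfactory receptor genes, at 85.5 to 89.5 Mb of chromosome 2 and at 38 to 39.8 Mb of chromosome 9 (build mm8). They were defined by position, with earlier results of these data known. They hold 2900 bins of 2000 bp, 2000 on chromosome 2 and 900 on chromosome 9, of 1315347 bins on chromosomes 1 to 19, X and Y. The 2 Mb on each side of each window, 4000 bins in all, served as the reference and are called the flanks. The question was whether receptor genes that are silent in fibroblasts carry trimethylated lysine 27 of histone H3 (H3K27me3), or none of the signals measured. No gene annotation of mm8 was used, so the gene content of single bins was not checked.

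All libraries came from secondary mouse embryonic fibroblasts in which Klf4, Sox2 and Oct4 (KSO) are Dox-inducible. Induced pluripotent cells that carried these factors and a selectable cassette at Oct4 were injected into BDF2 blastocysts, chimeric embryos were taken at 13.5 days post coitum, and fibroblasts of injected origin were selected with puromycin (2 µg/ml, 48 hours), per the labels. The labels give no doxycycline treatment for the libraries, and the fibroblast identity could not be checked against marker genes without an mm8 annotation. Chromatin immunoprecipitation and Solexa sequencing gave 1 library each for E2F4, H3K27me3 and RNA polymerase II (antibody 8WG16; RNA Pol II below), beside 2 libraries of whole cell extract (WCE) made without antibody.

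Olfactory receptors are G protein-coupled receptors of olfactory sensory neurons, each of which expresses a single receptor allele, and the genes lie in large clusters on many chromosomes. H3K27me3 is deposited by Polycomb repressive complexes and is found mostly at silent developmental genes with CpG-rich promoters, while silent receptor genes in sensory neurons are known for trimethylation of histone H3 at lysine 9. E2F4 is a mostly repressive member of the E2F family that binds promoters of cell cycle genes, and 8WG16 binds the repeated tail of the large polymerase subunit.

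Because CG dinucleotides set apart the promoters at which H3K27me3 is usually found, 3 promoters are shown as RefSeq gives them. Each runs from 250 bases before to 50 bases after the annotated start (GRCm38.p6, 5′ to 3′, CG in capitals). In both receptor sequences the last 50 bases begin with ATG, so the annotated start may be that of the coding sequence. Promoter below means this stretch, and whether it holds the start of transcription of the receptor genes was not tested. The positions belong to GRCm38.p6 and cannot be set against the mm8 positions used elsewhere. Olfr1212 (chr2:88958218-88958517, plus strand) had the most CG dinucleotides, 7, among the receptor promoters of the longest runs of receptor genes, described after the sequences. Olfr1132 (chr2:87635696-87635995, minus strand) had none, and the lowest share of G and C, 18.3%, among those without CG. Ptprj (chr2:90580546-90580845, minus strand), which encodes a receptor tyrosine phosphatase and is the next protein-coding gene after the receptor cluster on chromosome 2, had 42 at the first of its starts.
Olfr1212: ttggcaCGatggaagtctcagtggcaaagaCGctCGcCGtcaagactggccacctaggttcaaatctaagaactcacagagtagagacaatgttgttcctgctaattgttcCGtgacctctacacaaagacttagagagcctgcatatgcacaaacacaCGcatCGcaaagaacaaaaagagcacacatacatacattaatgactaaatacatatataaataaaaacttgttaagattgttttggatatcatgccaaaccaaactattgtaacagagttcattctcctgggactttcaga
Olfr1132: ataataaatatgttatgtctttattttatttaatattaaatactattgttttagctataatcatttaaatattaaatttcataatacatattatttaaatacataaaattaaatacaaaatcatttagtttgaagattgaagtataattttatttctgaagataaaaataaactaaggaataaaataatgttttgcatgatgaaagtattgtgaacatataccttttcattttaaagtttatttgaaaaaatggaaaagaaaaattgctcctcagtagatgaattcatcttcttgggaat
Ptprj: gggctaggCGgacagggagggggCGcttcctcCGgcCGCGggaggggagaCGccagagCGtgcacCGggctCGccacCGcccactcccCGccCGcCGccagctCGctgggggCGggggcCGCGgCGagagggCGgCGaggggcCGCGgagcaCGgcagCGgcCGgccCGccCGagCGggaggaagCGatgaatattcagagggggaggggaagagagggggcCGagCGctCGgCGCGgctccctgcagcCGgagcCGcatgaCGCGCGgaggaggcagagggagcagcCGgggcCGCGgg

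The first and second sequences are the ends of the range within these runs. The longest unbroken run of neighbouring receptor genes among protein-coding genes on chromosome 2 had 123 genes, from Olfr153 to Olfr1274, and that on chromosome 9 had 40, from Olfr160 to Olfr919. Promoters were given for 112 and 33 of these genes, 146 promoters in all. Of them, 49 (33.6%) held no CG, against 5.43% of all 32851 promoters of the table. The median was 1 CG per 300 bases against 7, and the median share of G and C was 33% against 52.7%. The flanking gene Zfp202, which codes for a zinc finger protein and follows the chromosome 9 cluster, had 17 CG, and Lrrc55, which precedes the chromosome 2 cluster and codes for a leucine-rich repeat protein, had 4. Thus 1 of these 3 neighbours lay inside the range of the receptor promoters.

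Letters of known sites were counted on both strands of the same windows. The E2F core written as TTCCCGC was in 0 of the 146 receptor promoters and in 4.6% of all promoters, and TTGGCGC was in 0 and 2.45%. TATAAA, which is found in many core promoters, was in 52.1% of receptor promoters against 13.6% of all, with 58.4% on chromosome 2 and 30.3% on chromosome 9. The palindromic O/E site of the Olf1/EBF factors, which have a role in olfactory neurons, was in 0 receptor promoters and in 0.904% of all promoters. A match is only a match of letters, and its absence says only that the letters are not in this stretch. Both E2F forms hold a CG, and TATAAA holds only A and T. The receptor promoters had a median of 1 CG against 7 and of 33% G and C against 52.7%. Shares expected from base composition were not computed, so the shares found do not show sites enriched or lacking beyond it. Runs that were joined across up to 3 other protein-coding genes held 222 genes on chromosome 2 and 95 on chromosome 9, with Fads2b, Pramel7 and Pramel6 inside the former and Vwa5a, AW551984 and Tmem225 inside the latter. Their 267 promoters held no CG in 34.1% of cases and at most 8 CG, so the share did not hinge on where a run was ended.

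**Figure D1:**
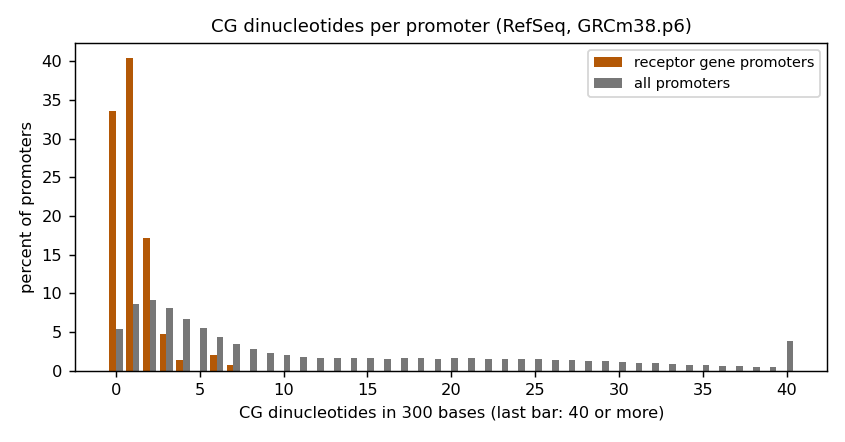
CG dinucleotides (x axis, count in 300 bases) in RefSeq promoters, as a percent of the 146 receptor promoters of the longest runs (orange) and of all 32851 promoters (grey); the last bar holds 40 or more. No receptor promoter of these runs lies beyond 7 CG, which is the median of all promoters.

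The libraries differed widely in depth, from 417799 distinct autosomal reads in WCE replicate 1 to 11226593 in WCE replicate 2, and H3K27me3 (9483163), RNA Pol II (3111606) and E2F4 (1971874) lay between them. Densities are given as reads per kb per 10000000 distinct autosomal reads, and the mean over autosomes is then 4.06 in every library. WCE replicate 1, which supplied 3.59% of the summed WCE reads, stood apart from the other 4 libraries. Per the run names in the file headers, it shared a sequencing run with E2F4 and RNA Pol II, and WCE replicate 2 shared one with H3K27me3. Read length, taken from an aligner setting, was 26 bases in the former run and 36 in the latter, so run and length cannot be told apart. WCE replicate 2 supplied 96.4% of the summed WCE reads. Ratios of RNA Pol II and E2F4 to the sum thus compare reads of unlike length, and the effect of length was not tested. With 1 library per antibody every test here compares libraries, not conditions, and the replicate spread cannot be measured. All intervals are exact, at 95%, and cover counting error only, since reads of an amplified library need not come from separate molecules.

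The windows were poor in reads of every library but WCE replicate 1. In the chromosome 2 window the density was 0.579 for H3K27me3 (2196 reads, interval 0.555 to 0.604), 0.369 for RNA Pol II (459 reads, 0.336 to 0.404) and 1.39 for E2F4 (1093 reads, 1.3 to 1.47). It was 0.876 for WCE replicate 2 (3935 reads, 0.849 to 0.904), yet 4.07 for WCE replicate 1 (681 reads, 3.77 to 4.39), which is the autosomal mean within its interval. The chromosome 9 window gave the same order, with RNA Pol II lowest at 0.541, then H3K27me3 at 0.795, WCE replicate 2 at 1.18, E2F4 at 1.53 and WCE replicate 1 at 3.98. As a share of the autosomal mean, both windows together had 0.159 of it in H3K27me3, 0.104 in RNA Pol II, 0.352 in E2F4, 0.239 in WCE replicate 2 and 0.996 in WCE replicate 1.

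The flanks did not share this shortage. Their densities were 4.86 for H3K27me3, 6.29 for RNA Pol II and 5.14 for E2F4, beside 4.62 in WCE replicate 2 and 4.35 in WCE replicate 1, all above the autosomal mean. Window over flank density was therefore 0.133 (0.128 to 0.138) for H3K27me3, 0.0671 (0.0623 to 0.0722) for RNA Pol II and 0.278 (0.264 to 0.293) for E2F4. The same quotient was 0.21 (0.204 to 0.216) for WCE replicate 2 and 0.929 (0.856 to 1.01) for WCE replicate 1. In direct comparison, WCE replicate 2 over replicate 1 was 0.24 (0.224 to 0.257) in the windows and 1.06 (1.01 to 1.12) in the flanks. The single flanks ran from 0.854 (0.771 to 0.948, left of chromosome 2) to 1.41 (1.27 to 1.57, right of chromosome 9). The background libraries thus disagreed most about the windows, where replicate 1 alone is at the autosomal mean. The ratios for both windows are given below against each of them as well as against their sum, and a value without a named replicate is against the sum. Why they differ was not tested.

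**Figure D2:**
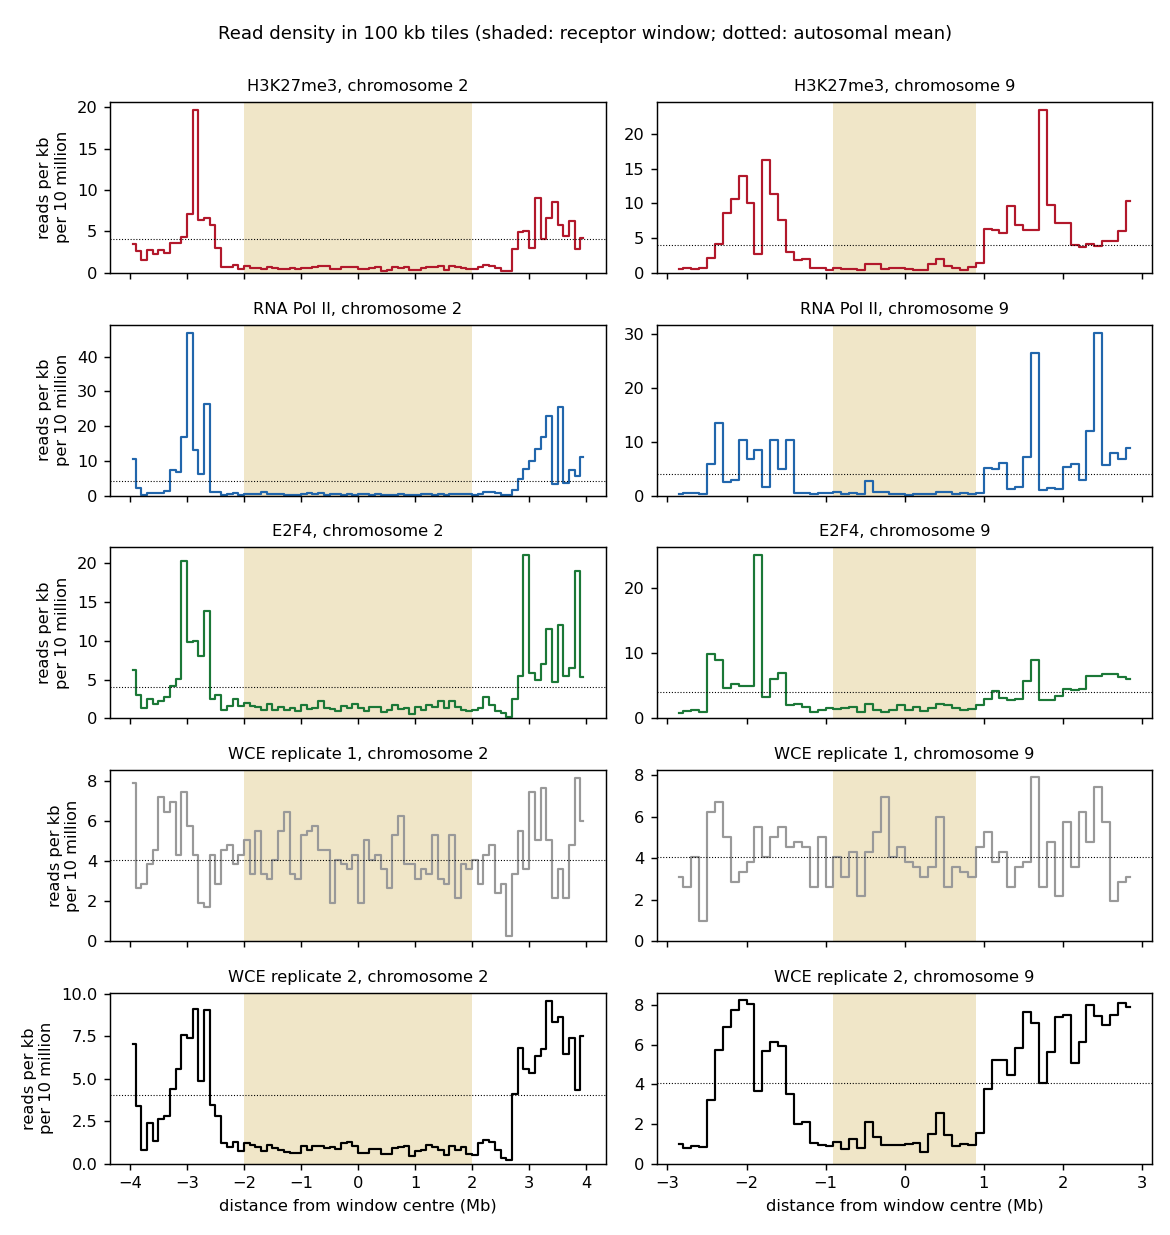
Read density (y axis, reads per kb per 10000000 distinct autosomal reads) in 100 kb tiles along the windows and flanks of chromosomes 2 and 9 (x axis, distance from the window centre in Mb), 1 row per library; shading marks the window and the dotted line the autosomal mean of 4.06. H3K27me3, RNA Pol II, E2F4 and WCE replicate 2 run low and level across the shaded windows, while WCE replicate 1 scatters about the dotted line inside and outside them.

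The low level reached past the chosen borders. H3K27me3 tiles of 100 kb stayed at or below the highest tile of the chromosome 2 window (0.812) for 100 kb to the left and 200 kb to the right, and WCE replicate 2 did so over the same lengths. At chromosome 9 both libraries stayed low for 500 kb to the left and 100 kb to the right. RNA Pol II stayed low for 600 and 700 kb around the chromosome 2 window and for 500 and 100 kb around that of chromosome 9. The borders of the windows are thus not the borders of the read-poor stretch, and the parts of the flanks nearest to the windows resemble them.

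H3K27me3 was lower in the windows than WCE was. Against the summed WCE the ratio, scaled by autosomal totals, was 0.584 on chromosome 2 (0.555 to 0.615) and 0.622 on chromosome 9 (0.582 to 0.664), or 0.598 for both (0.574 to 0.623). Against WCE replicate 2 alone, the library of the same sequencing run, it was 0.666 (0.639 to 0.694), and against WCE replicate 1 alone it was 0.16 (0.149 to 0.172). The direction was thus the same with either background, while the size of the shortfall was not. In the flanks the ratio to summed WCE was 1.05 (1.04 to 1.07). Chromosome 2 over chromosome 9 was 0.939 (0.864 to 1.02, Fisher's exact test, p = 0.138), so the windows did not differ beyond counting error, although against WCE replicate 1 alone this quotient was 0.711 (0.608 to 0.829).

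The windows were also set against the flanks by an odds ratio of antibody to WCE reads, which needs no scaling of the libraries. For H3K27me3 it was 0.659 on chromosome 2 (0.623 to 0.696), 0.519 on chromosome 9 (0.485 to 0.556) and 0.568 for both (0.544 to 0.593, Fisher's exact test, two-sided, p = 5.31e-157). By WCE replicate 2 alone it was 0.634 (0.607 to 0.662) and by replicate 1 alone 0.143 (0.131 to 0.157). The 4 single flanks gave 0.574 and 0.754 on chromosome 2, left and right, and 0.478 and 0.549 on chromosome 9. H3K27me3 relative to WCE was therefore lower in each window than in either of its flanks. The flanks differed among themselves, with ratios to WCE of 1.02, 0.775, 1.3 and 1.13 in the same order.

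With libraries scaled by autosomal totals, RNA Pol II had the lowest ratio to WCE of the antibodies. Its ratio to summed WCE was 0.372 on chromosome 2 (0.337 to 0.41) and 0.423 on chromosome 9 (0.375 to 0.477), or 0.391 for both (0.362 to 0.421). It was 0.104 against WCE replicate 1, its own run, and 0.435 against WCE replicate 2. Window over flank was 0.228 (0.206 to 0.252) on chromosome 2, 0.374 (0.33 to 0.422) on chromosome 9 and 0.286 for both (0.265 to 0.309), or 0.0722 (0.0647 to 0.0807) by replicate 1 and 0.32 (0.295 to 0.345) by replicate 2. The flanks had more RNA Pol II than WCE, with a ratio of 1.36 (1.34 to 1.39). The ratio to WCE depends on the scaling. With libraries scaled to the median ratio over autosomal bins of 10 kb, it was 1.25 (1.16 to 1.35) for both windows. This turns its direction, and every RNA Pol II ratio rises by 1.68 on the log2 scale. H3K27me3 was then at 0.779 (0.749 to 0.811), so RNA Pol II was no longer the lowest. The odds ratio against the flanks is free of the choice of scaling.

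E2F4 gave no direction that held against both backgrounds. Against summed WCE it was higher than WCE in the windows, at 1.4 on chromosome 2 (1.31 to 1.49) and 1.2 on chromosome 9 (1.09 to 1.32), or 1.33 for both (1.26 to 1.4). Against WCE replicate 1, from the same run, it was 0.354 (0.327 to 0.383), and against replicate 2 it was 1.48 (1.4 to 1.56). Window over flank was 1.08 (1 to 1.16) on chromosome 2, 1.25 (1.13 to 1.38) on chromosome 9 and 1.19 (1.12 to 1.26) for both by summed WCE, 0.299 (0.272 to 0.33) by replicate 1 and 1.33 (1.25 to 1.41) by replicate 2. In bins with at least 3 WCE reads, which are selected on the denominator, it was 0.85 (0.788 to 0.916). By summed WCE, chromosome 2 over chromosome 9 was 1.17 for E2F4 (1.04 to 1.31, Fisher's exact test, p = 0.00809) and 0.882 (0.741 to 1.05) by replicate 1.

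**Figure D3:**
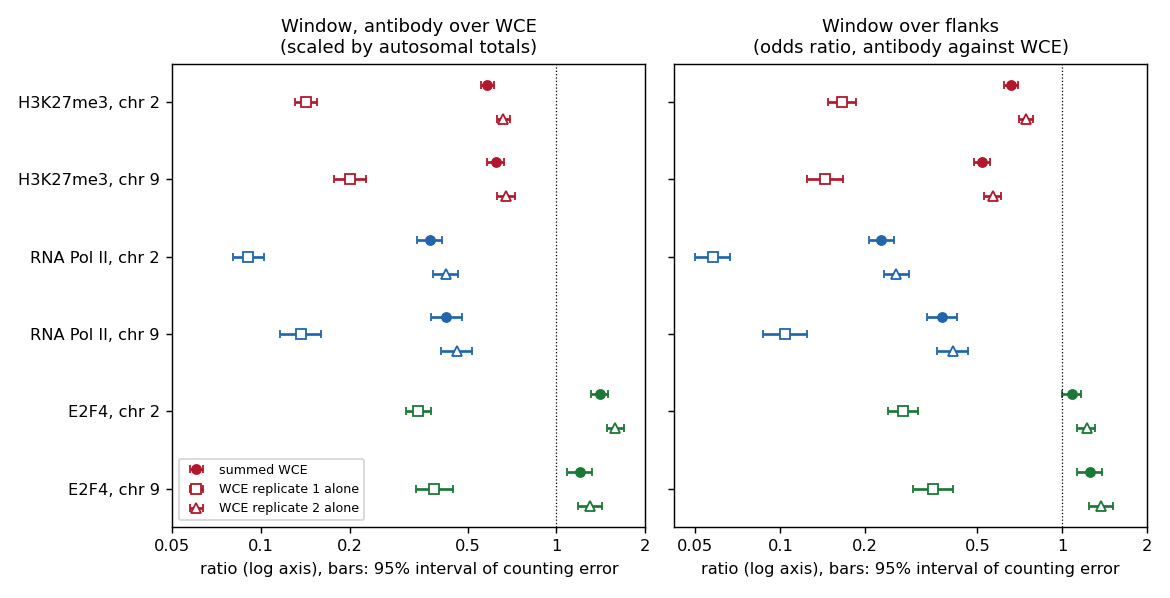
Ratio of each antibody to WCE in each window (left) and odds ratio of window over flanks (right), on log axes; circles use the summed WCE, squares WCE replicate 1 alone, triangles replicate 2 alone, and bars are exact 95% intervals of counting error. H3K27me3 and RNA Pol II lie left of 1 with every background, whereas E2F4 lies on either side of 1 according to the WCE library.

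The windows were then placed among 2368 autosomal tiles of 1 Mb outside them. The H3K27me3 density of the chromosome 2 window lay above that of only 43 tiles and that of the chromosome 9 window above 179. WCE replicate 2 ranked them almost alike, above 48 and 202 tiles, whereas WCE replicate 1 put them above 992 and 887. By the ratio of H3K27me3 to summed WCE, 94 tiles (3.97%) lay below the chromosome 2 window and 187 (7.9%) below that of chromosome 9, with a median over tiles of 0.865. By single WCE replicates, 3.04% to 6.33% of tiles lay below the former and 9.5% to 9.59% below the latter. For RNA Pol II, 20.7% and 28.1% of tiles lay below the windows by summed WCE, and 4.1% and 14.4% by replicate 1. For E2F4 the shares were 87.2% and 72.3% by summed WCE but 4.39% and 7.77% by replicate 1, so its place depended on the background. With each background, under 10% of tiles had less H3K27me3 relative to WCE than the windows.

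**Figure D4:**
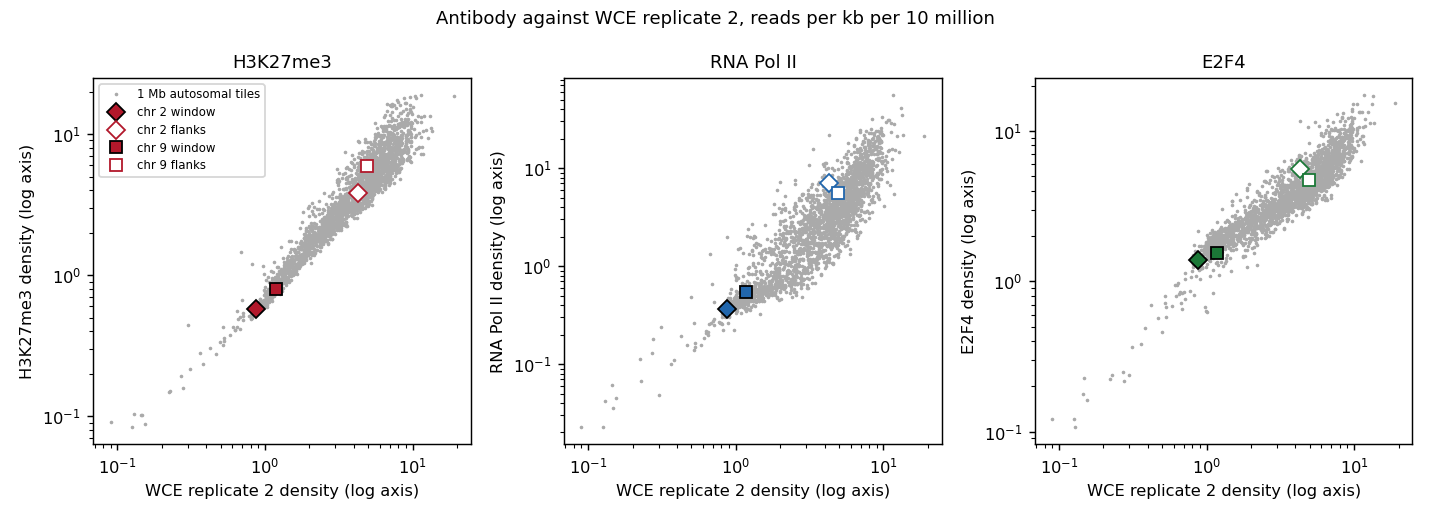
Density of each antibody (y axis, log) against that of WCE replicate 2 (x axis, log), both in reads per kb per 10000000 reads, in autosomal 1 Mb tiles (grey), the windows (filled; diamond chromosome 2, square chromosome 9) and their flanks (open). The windows lie near the low end of the cloud of tiles, where both densities fall together, and the flanks lie in its dense middle.

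A second reference was made of the 584 tiles without any called RNA Pol II bin (292000 bins). It compares the windows with stretches where RNA Pol II was not called. Each window held 1 called RNA Pol II bin, described below, so the windows as a whole do not meet this rule. The tiles were chosen by RNA Pol II, so nothing is read from its values there. Their H3K27me3 density was 1.49, beside 1.81 in WCE replicate 2 and 4.25 in WCE replicate 1. The windows were lower than these tiles in H3K27me3 relative to summed WCE, at an odds ratio of 0.764 (0.733 to 0.795), which was 0.456 (0.425 to 0.49) by WCE replicate 1 and 0.811 (0.778 to 0.845) by replicate 2. The chromosome 2 window gave 0.746 and the chromosome 9 window 0.794 by summed WCE. For E2F4 the odds ratio was 1.13 (1.07 to 1.19) by summed WCE, 0.674 (0.622 to 0.73) by replicate 1 and 1.2 (1.13 to 1.26) by replicate 2.

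Single bins were tested next, with the same rule for the whole genome: a bin was called where its antibody reads exceeded the scaled summed WCE at an adjusted p under 0.01 (one-sided exact binomial test, Benjamini-Hochberg adjustment) and by at least 3-fold. For H3K27me3, 0 of the 1729 window bins with a read were called, against 2.21% of tested bins in the genome and 109 of 3458 (3.15%) in the flanks. At an unadjusted p under 0.05 there were 5 window bins, 0.289% of those tested, against 8.32% of tested bins in the genome. The bin nearest to a call was on chromosome 2 at 89114001 to 89116000, with 9 H3K27me3 reads and 1 WCE read, and had an adjusted p of 0.103 in the exact test. On chromosome 9 the nearest, at 38640001 to 38642000, had 7 reads and 1 WCE read (adjusted p = 0.298, exact test).

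The power of single bins was low in the windows. The median window bin held 2 summed WCE reads and 1 H3K27me3 read, and 40.4% of bins held no H3K27me3 read. At 2 WCE reads, 16 H3K27me3 reads, a ratio of 9.82, were needed for a call, and the fullest window bin held 15. Weaker H3K27me3 over a single bin was thus not detectable at this depth. Pooling 5 neighbouring bins lowered the limit: in bins of 10 kb, with a median of 12 WCE reads, 32 H3K27me3 reads or a ratio of 3.27 were enough, and 0 of 562 tested window bins were called, against 2.22% in the genome. Among bins with up to 3 WCE reads, a class chosen after the low counts were seen, 0 of 1113 window bins were called, against 0.342% of tested bins in the genome (687 of 201112). In the tiles without RNA Pol II, 498 of 218724 tested bins (0.228%) were called. Signal in a small share of cells cannot be told apart from a weak signal in all.

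The nearest H3K27me3 bins called outside the windows lay 562 kb to the left and 1184 kb to the right on chromosome 2. On chromosome 9 they lay 698 kb to the left and 174 kb to the right. The nearest called bins of RNA Pol II were 648 and 880 kb away on chromosome 2 and 592 and 142 kb away on chromosome 9. Those of E2F4 were 650 and 880 kb away on chromosome 2 and 696 and 750 kb away on chromosome 9. To the left of each window, called bins of the 3 antibodies thus resumed at like distances.

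For RNA Pol II, 2 of 584 tested window bins were called, against 2.89% of tested bins in the genome and 102 of 2167 (4.71%) in the flanks. The first, on chromosome 9 at 38468001 to 38470000, held 38 RNA Pol II reads, 28 reads of WCE replicate 2, none of WCE replicate 1, 10 of H3K27me3 and 5 of E2F4. Its ratio to summed WCE was 5.08 (3.04 to 8.59, adjusted p = 4.96e-09, exact test). This bin was also the fullest of all window bins in WCE replicate 2, whose window median was 2, so both RNA Pol II and background reads were high there. The second, on chromosome 2 at 85820001 to 85822000, held 8 RNA Pol II reads, 1 of H3K27me3, 1 of E2F4 and no WCE read, with a lower limit of the ratio of 6.39 (adjusted p = 1.42e-04, exact test). Against WCE replicate 1 alone neither bin was called. That library had no read in either and is too shallow to decide at such counts, so nothing is read from this.

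For E2F4, 1 of 1133 tested window bins was called, against 0.737% of tested bins in the genome and 29 of 2416 (1.2%) in the flanks. It lay on chromosome 2 at 89046001 to 89048000 and held 5 E2F4 reads, 1 H3K27me3 read, no RNA Pol II read and no WCE read. The lower limit of its ratio was 5.41 (adjusted p = 0.00775, exact test). At 0 WCE reads 5 E2F4 reads are the fewest that can be called, so this bin lies at the threshold. Among bins with up to 3 WCE reads, 1 of 362 tested window bins was called for RNA Pol II (0.0661% of such bins in the genome) and 1 of 729 for E2F4 (0.077%), the chromosome 2 bins just named. In bins of 10 kb, 2 of 375 were called for RNA Pol II (4.14% in the genome) and 1 of 510 for E2F4 (0.971%). None of the 3 called bins was called for a second antibody. At 0 WCE reads, as in the chromosome 2 bins, a call needed 11 H3K27me3 reads, and each of these bins held 1. The share of bins in the genome called for a second antibody is not given here. Nothing about exclusive signals is therefore read from this.

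**Figure D5:**
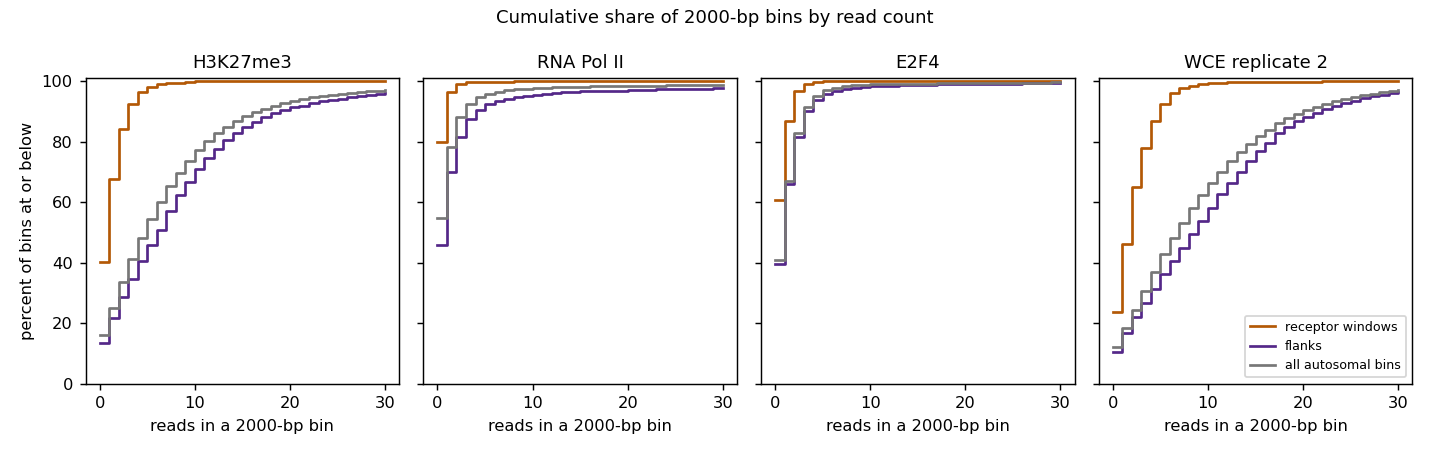
Cumulative percent of 2000-bp bins (y axis) that hold up to a given number of reads (x axis), in the windows (orange), the flanks (purple) and all autosomal bins (grey), for 4 libraries. The window curves for H3K27me3 and WCE replicate 2 rise far to the left of the others, with medians of 1 and 2 reads against 6 and 9 in the flanks.

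H3K27me3 varied less among the parts of the windows than among those of the flanks. Over the 40 tiles of 100 kb on chromosome 2 the H3K27me3 ratio to summed WCE ran from 0.342 to 0.891 with a median of 0.58. In 34 tiles the interval lay below 1, and in 0 above. The 18 tiles of chromosome 9 ran from 0.415 to 0.835, with 15 intervals below 1 and 0 above. The counts below 1 depend on scaling and background. They were 11 of 40 and 7 of 18 with median scaling. By WCE replicate 2 alone they were 26 and 12, and by replicate 1 alone 40 and 18. The spread of the chromosome 2 tiles was close to that of counting error (chi-square per degree of freedom 1.17) and that of the chromosome 9 tiles was larger (2.3). In the flanks the same quantity was 35.8 and 83.6. It also grows with the reads per tile, so these values do not compare spread alone. On chromosome 2 the 40 flank tiles held 14464 H3K27me3 reads against 2196 in the 40 window tiles. The ratios themselves ran wider in the flanks, from 0.49 to 2.21 on chromosome 2 and from 0.462 to 5.85 on chromosome 9.

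The tile with the most H3K27me3 relative to WCE on chromosome 2 was 88900001 to 89000000, with 74 H3K27me3 reads against 13 and 89 of the WCE libraries, a ratio of 0.891 (0.651 to 1.21). The same tile was the highest for E2F4 by summed WCE, with 43 reads and a ratio of 2.49 (1.7 to 3.59). Both ratios divide by the same WCE reads. The highest E2F4 ratio of any chromosome 2 tile was 0.701 by WCE replicate 1 alone and 2.75 by replicate 2 alone. The lowest H3K27me3 tile, 87900001 to 88000000, had 22 reads and a ratio of 0.342 (0.203 to 0.554). On chromosome 9 the highest was 38500001 to 38600000, at 0.835 (0.656 to 1.06), and the lowest 39000001 to 39100000, at 0.415 (0.289 to 0.587). No tile of either window had an H3K27me3 interval above 1, with either WCE replicate alone or with median scaling, under which the highest tiles were at 1.16 and 1.09.

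RNA Pol II tiles varied more, from 0.0739 to 1.4 on chromosome 2 (chi-square per degree of freedom 2.98) and from 0.147 to 1.2 on chromosome 9 (5.89). The highest of each window, 85800001 to 85900000 with 36 RNA Pol II reads and 38400001 to 38500000 with 82, hold the bins called above, and their intervals (0.929 to 2.08 and 0.927 to 1.55) include 1. The lowest, 87200001 to 87300000, held 3 RNA Pol II reads against 16 and 136 of the WCE libraries. The interval lay below 1 in 35 of 40 tiles on chromosome 2 and in 17 of 18 on chromosome 9, and above 1 in 0. This count rests on the scaling by totals: with median scaling the median tile was at 1.05 and 1.16, with 1 and 0 intervals below 1 and 6 and 2 above. E2F4 tiles ran from 0.945 to 2.49 on chromosome 2, with 13 intervals above 1, and from 0.819 to 1.89 on chromosome 9, with 4 above. By WCE replicate 1 alone, 34 of 40 and 15 of 18 E2F4 intervals lay below 1.

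Receptor genes are close copies of each other, so reads that fit at more than 1 place were examined as well. The deposited lists have a second section, read here as reads listed at 2 places, each counted at both. They made up 25.5% of H3K27me3 placements in the windows (24.3 to 26.8), 39.5% of those of RNA Pol II and 34.6% of those of E2F4, beside 40.5% in WCE replicate 1 and 24.3% in WCE replicate 2. In the flanks the shares were 3.75%, 6.61%, 10%, 38% and 4.43%. The windows were thus rich in such reads in every library except WCE replicate 1, which had 37.8% over all autosomes. In reads listed at 2 places alone, scaled by their totals, H3K27me3 was below summed WCE at 0.722 (0.666 to 0.783) on chromosome 2 and 0.862 (0.758 to 0.98) on chromosome 9, and at 0.673 and 0.823 by WCE replicate 2. Relative to the flanks, the windows had an H3K27me3 odds ratio of 0.887 (0.807 to 0.974) in these reads by summed WCE, 0.805 (0.729 to 0.89) by replicate 2 and 1.13 (0.998 to 1.29) by replicate 1. By summed WCE it was 0.87 (0.773 to 0.98) on chromosome 2 and 0.968 (0.823 to 1.14) on chromosome 9. By replicate 2 these were 0.797 (0.703 to 0.904) and 0.877 (0.737 to 1.04). Relative to the flanks, the shortfall of H3K27me3 seen in reads with 1 place was thus smaller here and did not hold against replicate 1. On chromosome 9 this odds ratio was not beyond counting error, although the ratio to summed WCE was, at 0.862 (0.758 to 0.98). RNA Pol II was lower in the windows than in the flanks in these reads too, at 0.47 (0.416 to 0.529) by summed WCE, 0.6 (0.517 to 0.696) by replicate 1 and 0.426 (0.376 to 0.483) by replicate 2. By the bin rule applied to such reads alone, 0 window bins were called for H3K27me3 (0.381% of tested bins in the genome) and 0 for E2F4 (0.138%). For RNA Pol II there were 3, all on chromosome 2, against 1.78% in the genome, and their values are in the closing section.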

How the data were processed

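The authors deposited, per the file headers, signed positions of aligned reads (unit: other), placed on mm8 by bowtie with -e 70, -k 2, -m 2 and -n 2. The setting of -l, taken here as the read length in bases, was 36 for H3K27me3 and WCE replicate 2 and 26 for the other libraries. Bowtie is also named in the submitters' processing notes, with a version not given in the sources used here. Per the labels, fragments had a mean of 500 bp, 18 amplification cycles were run and slices of 150 to 350 bp were cut. From these lists, reads with 1 place were kept once per position and strand, 5′ ends were moved 60 bp, and reads were counted in 2000-bp bins with Python 3.11.15 and scipy 1.17.1. With -m 2, reads that match at more than 2 places are left out of the lists. Windows, flanks and motifs, and the alternatives in the closing section, were chosen with earlier results of these data known. Ratios used exact conditional binomial tests with Clopper-Pearson intervals, and windows over flanks used Fisher's exact test, both two-sided. The bin test (pseudocount 1 read) was tested on simulated data. Named were the called bins, the highest and lowest 100 kb tiles, the ends of each gene run and the promoters with the most and fewest CG. The tiles without RNA Pol II, the tile values by single WCE replicate or median scaling, the flank comparison of reads listed at 2 places, the other neighbouring genes and the bins with the lowest p were added after values were seen.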

Additional observations from a re-analysis of the deposited data

Results flagged for a closer look

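Reads listed at 2 places, which the comparisons of windows with flanks leave out, gave called RNA Pol II bins in the chromosome 2 window. By the same bin rule, 3 of the 238 window bins of chromosome 2 with such a read were called over WCE and 0 of 80 on chromosome 9, which is no larger a share than the 1.78% of tested bins in the genome. The bin at 87326001 to 87328000 held 59 RNA Pol II placements, 13 of WCE replicate 2, none of WCE replicate 1, 2 of H3K27me3 and 2 of E2F4, a ratio of 13 (7.06 to 25.9). The bin at 87360001 to 87362000 held 17 and no WCE placement (lower limit 11.8), and that at 86128001 to 86130000 held 11 against 3 of WCE replicate 2, a ratio of 10.5 (2.78 to 58.7). Of reads with 1 place, these bins held 0, 0 and 1 for RNA Pol II. Each such read also counts at its other place, so the placements do not show from which place the RNA Pol II signal came. H3K27me3 and E2F4 had 0 called bins in the windows from such reads, against 0.381% and 0.138% of tested bins in the genome.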

How the results depend on the processing

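Of 198 alternatives for 21 results, 168 kept direction and side of the threshold or, for called bins, the same count. Every H3K27me3 result did so. The alternatives are not independent, since the results for both windows contain those of each chromosome. Settings of the shift left the ratios unchanged, as they hardly alter totals over whole windows. H3K27me3 called bins were 0 in each. Without WCE replicate 2 the background is shallow, and 64 H3K27me3 bins were called in the genome against 23793 as reported. For RNA Pol II these counts were 9379 against 16586 and for E2F4 1690 against 5549. The 0 called window bins of that setting thus say little. The H3K27me3 ratio to WCE without 1 WCE replicate was 0.16 to 0.666, or 0.143 to 0.634 for windows over flanks. For RNA Pol II the same ranges were 0.104 to 0.435 and 0.0722 to 0.32. Scaling to the median 10 kb bin turned its ratio to WCE to 1.25, with 1.19 on chromosome 2 and 1.36 on chromosome 9. The same scaling raised the H3K27me3 ratio to WCE to 0.779 (0.749 to 0.811), with 0.761 on chromosome 2 and 0.811 on chromosome 9. RNA Pol II called bins were 0 to 2 when a WCE replicate was left out (0 without replicate 2), 5 with reads listed at 2 places added, 5 with median scaling, and 1 among bins with up to 3 WCE reads (0.0661% of such bins in the genome), a class chosen after seeing the data.

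E2F4 turned without WCE replicate 2. Its ratio was 0.354 to 1.48 for both windows, 0.34 to 1.58 on chromosome 2 and 0.385 to 1.3 on chromosome 9, and windows over flanks 0.299 to 1.33, 0.272 to 1.22 and 0.348 to 1.37. In bins with at least 3 WCE reads the ratios were 0.932, 0.956 and 0.894, and windows over flanks 0.85, 0.749 and 0.951. On chromosome 2, windows over flanks were 0.954 with all repeats kept and 0.967 with 1 Mb flanks. By the left flank only they were 1.04 for both and 0.961 on chromosome 9. E2F4 called bins were 0 to 2 without a WCE replicate, 2 with reads listed at 2 places and 4 at an adjusted p under 0.05. Selection of bins on WCE reads lowers ratios by construction, and the cause of the other changes was not tested. No paired analysis was possible because each antibody has 1 library. Depth limits single bins: at 2 WCE reads a call needed 8 RNA Pol II reads (ratio 15) or 7 E2F4 reads (20.7).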
